A study of Mus musculus with 2 samples.

Results

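The enzymes and regulators of cholesterol and fatty acid synthesis were compared between Jam3-null and wild-type (WT) mouse leukemia cells. The group held 36 of the 27370 gene names on the array. It was made of 18 enzymes of sterol synthesis, 6 regulators of sterol balance and 12 enzymes of fatty acid synthesis, matched to the array by gene name. Where a gene had several probes, the probe with the highest mean signal gave its value. The enzymes of sterol and of fatty acid synthesis are described apart.

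Cells build cholesterol from acetyl-CoA through mevalonate, isoprenoid units, squalene and lanosterol, and build palmitate from the same acetyl-CoA through malonyl-CoA. The transcription factors SREBP-2, encoded by Srebf2, and SREBP-1, encoded by Srebf1, drive the genes of both pathways. SCAP carries these factors to the Golgi for activation when sterol is scarce, and the INSIG proteins hold them back when it is plentiful. Dividing blood cells use both products for new membranes.

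Both groups were leukemia-initiating cells, the cells able to start the disease again, from acute myeloid leukemias driven by the MLL-AF9 fusion gene. The fusion was carried with a YFP reporter in the Jam3-null and in the WT cells alike. Cells were sorted from the bone marrow of female mice as YFP+, Mac-1+ and c-Kit+. Jam3 encodes junctional adhesion molecule 3, a surface protein. Total RNA of each genotype was labelled with Cy3 and put on 1 array, 2 arrays in all. The label of each array names 3 mice. Their age, their strain, and whether their cells or RNA were pooled are not given in the sources used here. With 1 array per genotype there is no replicate error and no test between the genotypes is possible. Each difference is a log2 value, Jam3-null minus WT, after each array was scaled to its 75th percentile. Signals are the scanner's processed signals before that scaling, with the Jam3-null array given first. The error beside a difference is the SD that the scanner software's error model gives, which covers measurement only and not the spread between mice or leukemias.

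The arrays were of similar brightness, with 55.0% (Jam3-null) and 61.8% (WT) of spots well above background and median signals of 49.3 and 51.6. Both probes of Jam3 were below background on both arrays (28.1 against 5.09 and 5.40 against 3.23), so the targeted gene did not check the labels. Of the genes used in the sort, Kit, which encodes c-Kit, differed by 0.09. Itgam, which encodes a chain of Mac-1, had a signal of 3703 (Jam3-null) and 302 (WT). Genes of maturing neutrophils were higher on the Jam3-null array, all 11 of 11 by at least 2-fold (beside 10.3% of all measured genes). Their summed signal was 1029113 against 177138. All 6 measured genes of mast cells, basophils and eosinophils were at least 2-fold lower (beside 8.63%), with a list sum of 5937 against 34360. In bulk RNA of this kind, fewer cells of a type and less RNA per cell cannot be told apart, and the part of these differences in the values below was not tested. Only genes with a probe well above background on each array were compared. That held for 14351 genes, whose median difference was -0.07 and of which 55.2% were lower on the Jam3-null array by any amount.

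Promoter sequence is shown for 4 of the genes because promoters can hold the sites through which the pathway is known to be read. RefSeq (GRCm38.p6) gave windows from 250 bases before to 50 after the start for 29 of the 36 genes, and the bases before the start are printed 5′ to 3′ on the gene's strand. Hmgcs1 (chr13:119690101-119690350, + strand) makes HMG-CoA. Mvk (chr5:114444019-114444268, + strand) encodes mevalonate kinase. Cyp51 (chr5:4104698-4104947, - strand) encodes lanosterol 14-demethylase. Elovl6 (chr3:129532136-129532385, + strand) encodes the enzyme that lengthens palmitate to stearate. Capitals mark the sterol regulatory element TCACNCCAC, to which SREBPs bind, and the NF-Y box CCAAT, each on either strand, so the latter may read ATTGG.
Hmgcs1: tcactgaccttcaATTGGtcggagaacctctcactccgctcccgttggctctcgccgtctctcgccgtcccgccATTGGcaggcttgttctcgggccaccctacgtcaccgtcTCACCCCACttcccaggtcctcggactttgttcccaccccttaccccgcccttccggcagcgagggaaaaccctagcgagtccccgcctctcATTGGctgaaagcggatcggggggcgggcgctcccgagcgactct
Mvk: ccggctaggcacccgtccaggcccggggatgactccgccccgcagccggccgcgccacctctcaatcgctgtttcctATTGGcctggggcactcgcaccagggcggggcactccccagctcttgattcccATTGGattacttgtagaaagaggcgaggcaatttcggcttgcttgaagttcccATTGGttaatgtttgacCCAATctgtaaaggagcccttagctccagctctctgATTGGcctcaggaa
Cyp51: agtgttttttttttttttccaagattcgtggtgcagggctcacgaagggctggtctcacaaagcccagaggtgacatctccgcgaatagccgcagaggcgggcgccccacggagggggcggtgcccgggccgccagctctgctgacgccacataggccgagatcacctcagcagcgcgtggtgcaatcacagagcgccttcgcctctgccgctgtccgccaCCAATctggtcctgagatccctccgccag
Elovl6: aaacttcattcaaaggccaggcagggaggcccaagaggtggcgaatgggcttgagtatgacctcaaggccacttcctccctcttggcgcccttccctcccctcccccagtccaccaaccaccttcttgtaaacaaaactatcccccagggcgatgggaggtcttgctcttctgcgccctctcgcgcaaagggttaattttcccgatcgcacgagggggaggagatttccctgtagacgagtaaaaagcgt
The 250 bases printed for Hmgcs1 held 1 sterol regulatory element, starting 137 bases before the start, and 3 NF-Y boxes. Those for Mvk held 5 NF-Y boxes, those for Cyp51 held 1, and those for Elovl6 held neither motif. A further NF-Y box of Hmgcs1 lay after the start, in the part of its window not printed.

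NF-Y boxes were present in the promoters of 14 of the 15 sterol enzymes with a window (93.3%), of 4 of 5 regulators and of 6 of 9 fatty acid enzymes (66.7%), beside 41.1% of all 27025 genes in the table. The GC box GGGCGG, which Sp1 binds, was in 14 of 15 sterol enzyme promoters, 5 of 5 regulator promoters and 4 of 9 fatty acid enzyme promoters, beside 38.2% of all genes. The sterol regulatory element in these letters was found in 1 of the 15 sterol enzyme promoters (6.67%), that of Hmgcs1, and in 1.44% of all genes. The E-box CACGTG was in 3 of 15 sterol enzyme promoters (20.0%) and in 8.09% of all genes. Each motif was searched on both strands of windows of 300 bases, and a gene with several starts counted when any of its windows held it. A match is a description of the letters and not of binding. With 14 of 15 sterol enzymes holding an NF-Y box, its presence could not be compared with the direction of their signals. Tm7sf2, Mvd and Ebp, which were not lower on the Jam3-null array, also hold one. Sqle and Fads1, described below as at least 2-fold lower, were among the genes without a window.

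All 18 sterol enzymes were measured on both arrays, and 12 of them were lower on the Jam3-null array (66.7%, beside 55.2% of all genes). These 12 kept that direction under each alternative that gave them a value, and 5 of them (Mvk, Sqle, Lss, Cyp51 and Nsdhl) had none under the stricter filter on dim probes. Of the 6 others, Ebp and Sc5d changed sign with the processing. Their median difference was -0.38, beside -0.07 over all genes, and their range was -1.59 to 0.43. Mvk, Sqle and Cyp51 were at least 2-fold lower, which is 16.7% of the list beside 8.63% of all genes, and 0 of 18 were at least 2-fold higher, beside 10.3% of all genes. At 1.5-fold, 6 of 18 were lower (33.3%, beside 20.3% of all genes) and 0 higher (beside 18.5%). Of these 6, Dhcr7 was under 1.5-fold after cyclic loess (-0.56). Differences beyond 2 error-model SDs were seen in 8 sterol enzymes on the lower side (44.4%, beside 27.8% of all genes) and in 1 on the higher side (5.56%, beside 23.0%).

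**Figure D1:**
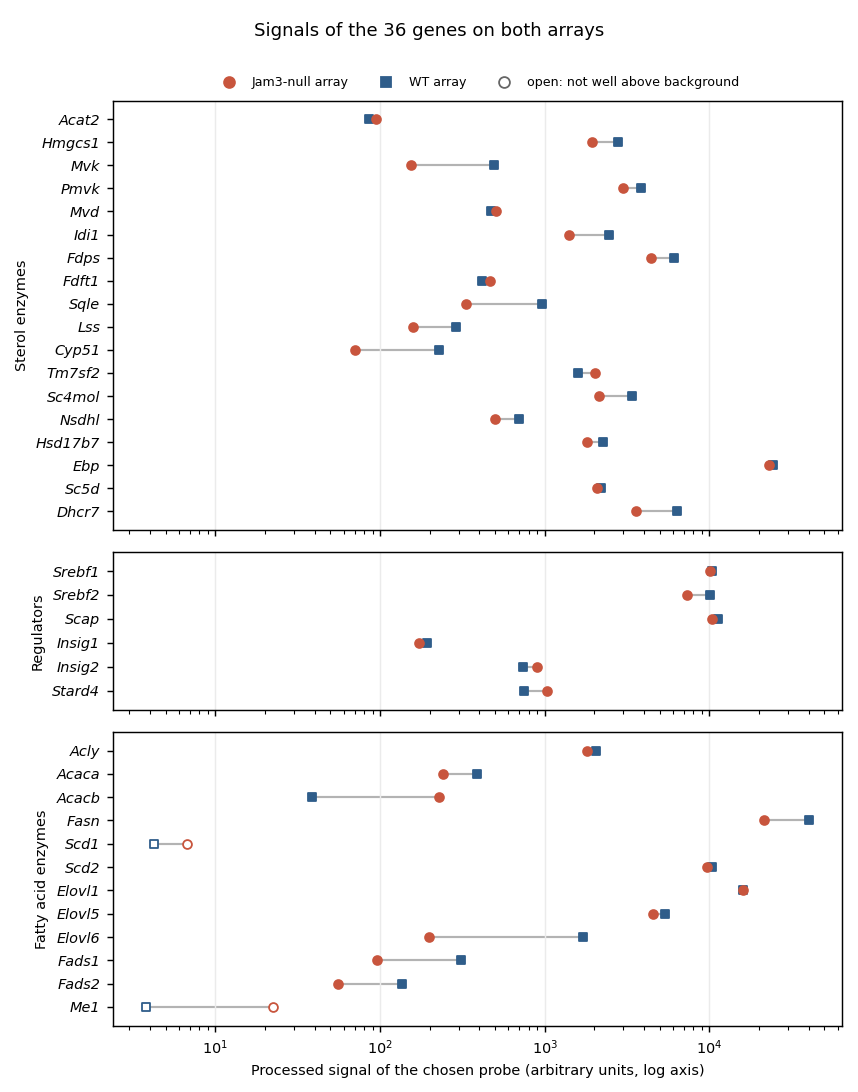
Processed signal (arbitrary units, log axis) of the probe that stands for each of the 36 genes, with a red circle for the Jam3-null array and a blue square for the WT array; open symbols were not well above background. The widest gaps with the WT symbol on the right belong to Elovl6 (198 against 1713), Mvk, Sqle, Cyp51 and Fads1, and Acacb has the widest gap in the other direction (229 against 38.8).

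In the first stage, from acetyl-CoA to isoprenoid units, 5 of 7 genes were lower (71.4%, beside 55.2% of all genes; median -0.36). Acat2, the cytosolic thiolase that joins acetyl-CoA units, had signals of 94.8 (Jam3-null) and 86.2 (WT), a difference of 0.23. Its probe also matches the near-identical Acat3, so this value is uncertain. Hmgcs1, the gene whose promoter held the sterol regulatory element, had signals of 1926 and 2767, a difference of -0.43. The array files place its probe on a chromosome 13 contig of mm9 that is not anchored, and its 2 other probes were above background on the WT array alone.

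Mvk, which adds the first phosphate to mevalonate, had a signal of 154 (Jam3-null) and 490 (WT). The Jam3-null signal was the lower by 2.97-fold after scaling, a difference of -1.57 ± 0.21 (error-model SD). A second Mvk probe read 198 and 359, a difference of -0.77, so both probes were lower on the Jam3-null array but only the brighter passed 2-fold. The Mvk probes are printed because the size of the difference depended on which was read.
Mvk, brighter probe: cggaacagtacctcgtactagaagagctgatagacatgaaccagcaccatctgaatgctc
Mvk, second probe: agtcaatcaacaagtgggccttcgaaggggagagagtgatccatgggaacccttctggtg
The brighter probe aligned at chromosome 5, 114905993 to 114908940 (mm9, + strand), a span of 2948 bases for 60 bases of probe, and the second at 114902394 to 114902453. Neither probe has been placed on an exon here, since the array files give only coordinates.

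Pmvk, which adds the second phosphate to mevalonate, read 2988 and 3819, a difference of -0.26. Mvd, the decarboxylase that follows, read 505 and 471, a difference of 0.20. These steps next to Mvk stayed under 1.5-fold. Idi1, the isomerase that interconverts the isoprenoid units, read 1402 and 2449, a difference of -0.71 ± 0.20, and its second probe gave -0.83. Fdps, which joins the units to farnesyl diphosphate, read 4444 and 6118, a difference of -0.36, while its dimmer probe read 147 and 133 and gave 0.24. The direction for Fdps therefore depended on the probe.

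In the squalene and lanosterol stage, 2 of 3 genes were lower (beside 55.2% of all genes; median -0.77). Fdft1, squalene synthase, read 463 (Jam3-null) and 416 (WT), a difference of 0.25. Sqle, squalene epoxidase, which adds the oxygen that later becomes the sterol hydroxyl, read 332 and 966. The Sqle signal was 2.72-fold lower on the Jam3-null array, a difference of -1.44 ± 0.21, from its only probe at chromosome 15, 59162384 to 59162443 (mm9). Lss, lanosterol synthase, read 159 and 290.4, a difference of -0.77 ± 0.21, and its other probes gave -0.44 and -0.55. Sqle and Lss, which follow each other in the pathway, were thus both at least 1.5-fold lower by their chosen probes, and the enzyme before them was not. For Lss only the brightest probe passed 1.5-fold.

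In the last stage, from lanosterol to cholesterol, 5 of 8 genes were lower (62.5%, near the 55.2% of all genes; median -0.31). Cyp51, the first enzyme of the stage, had signals of 70.7 (Jam3-null) and 227.5 (WT). This was 3.01-fold lower, a difference of -1.59 ± 0.24, and the other Cyp51 probes gave -1.57 (45.8 against 145) and -1.10 (28.1 against 64.3). All 3 probes were lower by over 2-fold. They were dim, and after normexp background correction the brightest gave -0.93, which is 1.91-fold and under the 2-fold mark. The dimmest Cyp51 probe is printed because it lay apart from the others along the gene and differed in the same direction. It aligned at chromosome 5, 4092033 to 4092439 (mm9, - strand), and the brightest at 4081471 to 4081530.
Cyp51, dimmest probe: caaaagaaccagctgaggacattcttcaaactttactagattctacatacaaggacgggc

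Tm7sf2, the sterol 14-reductase that follows Cyp51, read 2007 (Jam3-null) and 1596 (WT), a difference of 0.43, the highest among the sterol enzymes. Sc4mol, now named Msmo1, the methyl sterol oxidase, read 2139 and 3367, a difference of -0.56. Nsdhl, the dehydrogenase that works with it, read 497 and 703, a difference of -0.40. All 4 Nsdhl probes were lower, from -0.73 to -0.40. Hsd17b7, the ketone reductase of the same demethylation, read 1810 and 2251, a difference of -0.22.

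Ebp, the sterol isomerase, read 22949 and 24385, a difference of 0.01. Sc5d, the 5-desaturase, read 2085 and 2194, a difference of 0.02, but its second probe read 99.97 and 39.0 and gave 1.46. Ebp and the brighter Sc5d probe differed by less than the error-model SD. Dhcr7, which reduces 7-dehydrocholesterol to cholesterol, read 3605 and 6325, a difference of -0.71 ± 0.20, with -0.95 from its second probe. Every stage of sterol synthesis thus held genes that were lower by at least 1.5-fold beside genes that were not.

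**Figure D2:**
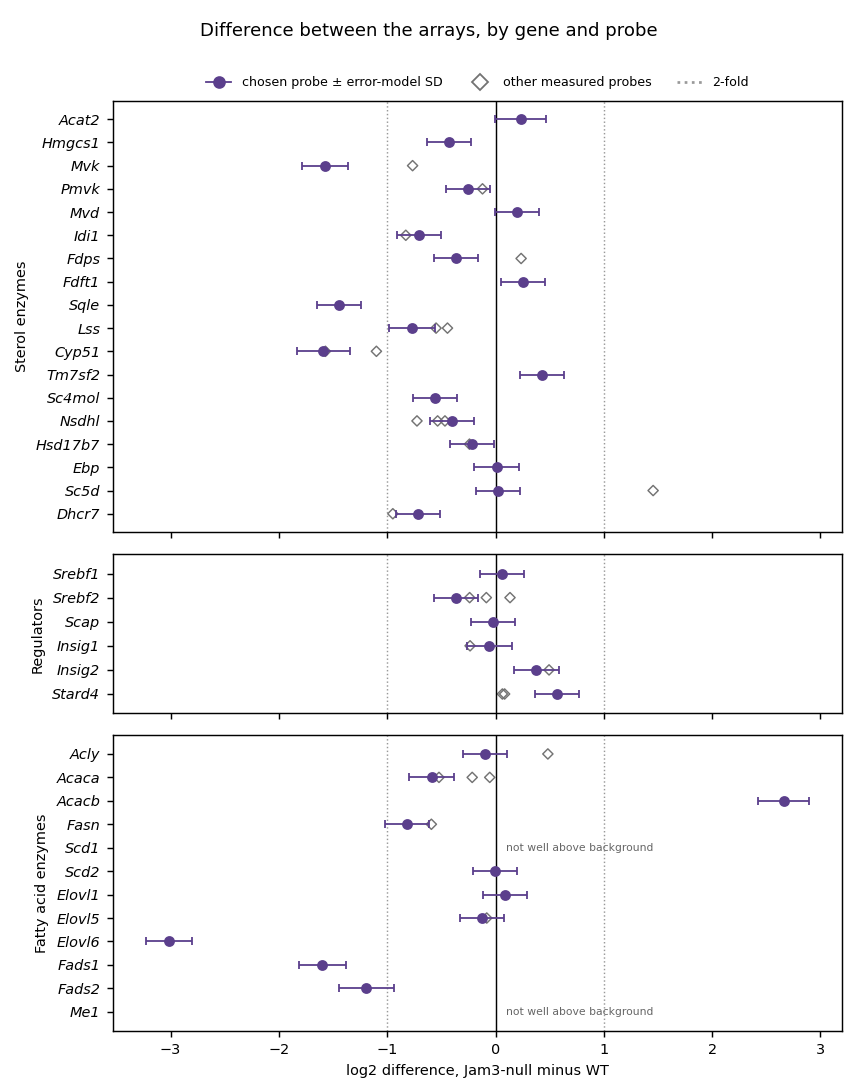
Log2 difference, Jam3-null minus WT, for each gene; filled circles with bars give the chosen probe and its error-model SD, open diamonds the other measured probes, and dotted lines 2-fold. Mvk, Sqle, Cyp51, Elovl6, Fads1 and Fads2 lie beyond the line at the left and Acacb beyond that at the right, while the 6 regulators lie between -0.37 and 0.57.

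All 6 regulators were measured, 3 lower and 3 higher, with a median of 0.02. None reached 1.5-fold, beside 20.3% of all genes lower and 18.5% higher by as much, which in 6 genes leaves little to read from this count. Srebf2 had signals of 7316 (Jam3-null) and 10073 (WT), a difference of -0.37, and its other probes gave -0.24, -0.09 and 0.13. Srebf1 read 10064 and 10307, a difference of 0.06. Scap read 10349 and 11237, a difference of -0.02.

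The INSIG genes differed by small amounts, Insig1 by less than the error-model SD of its brighter probe. Insig1, itself a target of SREBPs, read 173 and 192, a difference of -0.06, with -0.24 from its second probe. Insig2 read 892 and 734, a difference of 0.38, with 0.49 from its second probe. Stard4, which carries cholesterol between membranes, read 1035 and 745, a difference of 0.57 ± 0.20, the largest among the regulators. Its other probes gave 0.08 and 0.06, so that difference rested on the brightest probe. Signals of the regulators' RNA say nothing of SREBP cleavage, which sets the activity of the pathway and was not measured.

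Of the 12 fatty acid enzymes, 10 were measured on both arrays. Of these, 8 were lower on the Jam3-null array (80.0%, beside 55.2% of all genes). Among the 8, Acly, Scd2 and Elovl5 changed sign under other processing. The 10 had a median of -0.36 and a range, -3.02 to 2.66, that was wider than that of the sterol enzymes. Elovl6, Fads1 and Fads2 were at least 2-fold lower (3 of 10, beside 8.63% of all genes), and Acacb was at least 2-fold higher (1 of 10, beside 10.3%). At 1.5-fold, 5 of 10 were lower (beside 20.3% of all genes) and 1 higher (beside 18.5%). Of these 5, Acaca lay at the threshold (1.51-fold) and was under it after normexp correction (-0.44), after cyclic loess (-0.53) and as the mean of its probes (-0.35). Scd1 and Me1 were below background on both arrays, and no difference is given for them.

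Among the genes of palmitate synthesis, Acly, the citrate lyase that supplies cytosolic acetyl-CoA, read 1796 (Jam3-null) and 2056 (WT). Its difference was -0.10, while its dimmer probe (50.2 against 38.4) gave 0.48. Acaca, the acetyl-CoA carboxylase of the cytosol that makes malonyl-CoA for synthesis, read 242 and 390.0, a difference of -0.59 ± 0.21. All 4 Acaca probes were lower, though 2 of them by no more than -0.22 and -0.05. Fasn, fatty acid synthase, read 21454 and 40393, a difference of -0.82 ± 0.20, which is 1.76-fold, and its second probe gave -0.59. The WT array thus held the higher signal for the carboxylase and the synthase that act in sequence.

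Acacb, the carboxylase of the mitochondrial surface, whose malonyl-CoA restrains fatty acid oxidation, stood apart from Acaca. Its probe at chromosome 5, 114700635 to 114700695 (mm9), had a signal of 229 (Jam3-null) and 38.8 (WT), 6.32-fold higher, a difference of 2.66 ± 0.24. After normexp background correction the difference was 1.74, or 3.34-fold. A second Acacb probe was below background on both arrays (5.22 and 9.44), so 1 probe carried this difference. Me1, malic enzyme, a source of NADPH for the synthase, read 22.4 and 3.79, and its other probe 5.67 and 13.4.

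Elovl6 had the largest difference of the 34 measured genes. Its signal was 198 (Jam3-null) and 1713 (WT), 8.10-fold lower, a difference of -3.02 ± 0.21. It kept -2.60 (6.07-fold) after normexp correction. The value came from 1 probe, at chromosome 3, 129341248 to 129341307 (mm9, + strand). The other elongases of the group, Elovl1 and Elovl5, differed by less than the error-model SD. Elovl1, which lengthens saturated very long chains, read 16016 and 16087, a difference of 0.09. Elovl5, which lengthens polyunsaturated chains, read 4575 and 5341, a difference of -0.13, with -0.08 from its second probe.

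Of the 4 desaturases, 2 were lower on the Jam3-null array by 2-fold or more (beside 8.63% of all genes). Fads1, the delta-5 desaturase of polyunsaturated fatty acids, read 95.5 (Jam3-null) and 309 (WT). This was 3.03-fold lower, a difference of -1.60 ± 0.22. Fads2, the delta-6 desaturase of the same route, read 55.6 and 136, 2.29-fold lower, a difference of -1.19 ± 0.25. Both probes lie on chromosome 19, where the genes are neighbours, at 10270530 to 10270589 for Fads1 and 10138750 to 10139180 for Fads2 (mm9). Each gene had 1 probe, and after normexp correction Fads1 gave -1.19 and Fads2 -0.66, the latter 1.58-fold and under the 2-fold mark. Scd2, a stearoyl-CoA desaturase, was bright on both arrays (9689 and 10382) and differed by less than the error-model SD. Scd1, the main form of liver and fat, was not well above background on either (6.74 and 4.23).

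**Figure D3:**
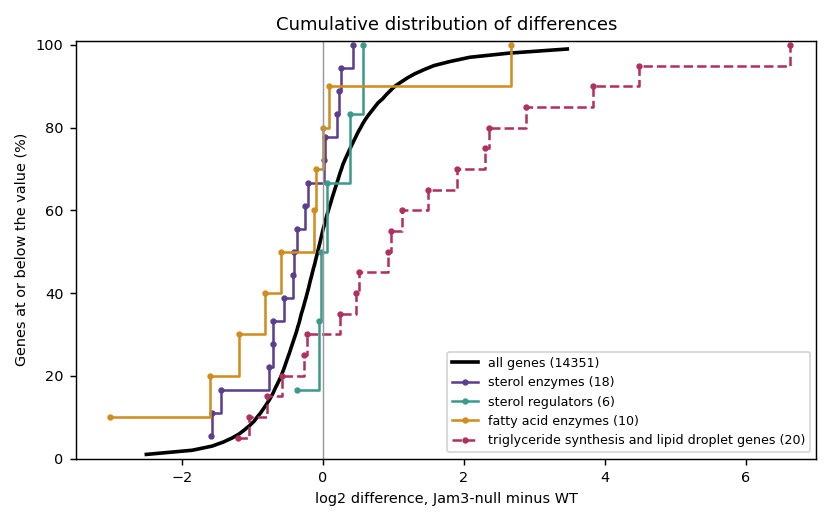
Cumulative share of genes (%) at or below each log2 difference, Jam3-null minus WT, for all 14351 measured genes (black, from the 1st to the 99th percentile) and for the named groups, with 1 point per gene. The sterol and fatty acid enzyme curves lie left of the black curve over most of their length (medians -0.38 and -0.36 against -0.07), the 6 regulators lie near 0, and the triglyceride and lipid droplet genes lie to the right (median 0.95).

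Over the whole group, 34 of 36 genes were measured. Of these, 23 were lower (67.6%, beside 55.2% of all genes) and 11 higher, 6 were lower by 2-fold or more (17.6%, beside 8.63%) and 1 was higher by as much (2.94%, beside 10.3%). Under 1.5-fold apart were 22 of the 34 genes, beside 61.2% of all genes, which is near that share. The genes differed in how well their probes agreed. Of 18 genes with several measured probes, 3 (16.7%) had probes of opposite sign, namely Acly, Fdps and Srebf2, beside 1300 of 5177 such genes on the array (25.1%). None of the 3 reached 1.5-fold by its chosen probe. Brighter genes as a whole were slightly lower on the Jam3-null array: the median over all genes was 0.03 in the dimmest of 4 equal bins of mean signal and -0.19 in the brightest. Of the genes at least 2-fold apart, Cyp51, Fads2 and Acacb were in the dimmest bin (mean signals up to 191). Mvk, Sqle and Fads1 were in the bin above it, where the median of all genes was -0.02, and Elovl6 lay at the lower edge of the next, with a median of -0.10.

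Other genes of sterol handling lay near the shares of all genes. Of 24 listed, covering further synthesis enzymes, uptake, storage, export and the sterol-sensing LXR receptors, 20 were measured, with a median of -0.09, 11 lower (55.0%, beside 55.2% of all genes) and 9 higher. None was at least 2-fold lower (beside 8.63%), and 2 of 20 were at least 2-fold higher (beside 10.3%). Abcg1, which exports cholesterol and is a target of LXR, read 2051 (Jam3-null) and 427 (WT), a difference of 2.36 ± 0.20. Nr1h3, which encodes LXR alpha, read 51.7 and 24.2, a difference of 1.19 ± 0.34 that was 0.52 after normexp correction.

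Other genes of fatty acid synthesis and activation went both ways. Of 28 listed, 22 were measured, with a median of -0.30, 13 lower (59.1%, beside 55.2% of all genes) and 9 higher. At 2-fold, 5 were lower (22.7%, beside 8.63%) and 5 higher (22.7%, beside 10.3%). Elovl7, another elongase of long chains, read 826 and 4674, a difference of -2.40 ± 0.20, in the same direction as Elovl6. Ptpla and Ptplb, paralogous dehydratases of the elongation cycle, gave -1.33 and 1.28. Mecr, a reductase of mitochondrial fatty acid synthesis, gave -1.26. Acss2, which makes acetyl-CoA from acetate, gave 1.60. Mlxipl, which encodes the carbohydrate-responsive factor ChREBP, read 74.5 and 20.0, a difference of 1.99 ± 0.33 that was 0.81 after normexp correction.

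Genes of triglyceride and lipid droplets, a list that covers both storage and breakdown, were mostly higher on the Jam3-null array. Of 23 genes of triglyceride synthesis and lipid droplets, 20 were measured, with a median of 0.95, 14 higher (beside 44.8% of all genes) and 6 lower. By 2-fold or more, 9 were higher (45.0%, beside 10.3% of all genes) and 2 lower (beside 8.63%). Mogat2, a monoacylglycerol acyltransferase, read 32699 (Jam3-null) and 354 (WT), a difference of 6.62 ± 0.20. Dgat2, which catalyses the final step of triglyceride synthesis, gave 2.30. The lipase Mgll gave 4.48, the lipase activator Abhd5 2.35, the lipase inhibitor G0s2 3.83 and the droplet protein Plin5 2.87. After normexp correction Plin5 gave 1.58 and G0s2 3.18. The difference between this list and the enzymes of synthesis was not tested.

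Marker levels of other cells moved between the same arrays. Of 8 measured monocyte and macrophage genes, 4 were higher on the Jam3-null array by 2-fold or more (beside 10.3% of all genes). The 8 had a median of 1.28, and the list sum was 11780 against 3201. Of the 6 adipocyte genes, whose cells make and store fat, Adipoq, Plin1 and Lep were below background on both arrays. Fabp4 (183 against 65.0) and Lpl (451 against 57.4), which macrophages also express, were higher on the Jam3-null array, Cfd was above background there alone, and the list sum was 1018 against 151. Of 8 genes of dividing cells, 7 were lower (87.5%, beside 55.2% of all genes) and 1 higher. Their median was -0.29 and their range -0.54 to 0.64. None was 2-fold apart, beside 8.63% of all genes lower and 10.3% higher by as much. The B cell list summed to 7946 against 13394, nearly all of it Cd79b (7761 against 11223), while Vpreb1 was 16.9-fold lower (115 against 2069). The T cell list summed to 248 against 253, with Lck 2.04-fold lower and Cd3d well above background in Jam3-null cells only. The erythroid list summed to 883 against 436. Whether the cells' maturity or type sets the values of the synthesis genes was not tested.

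**Figure D4:**
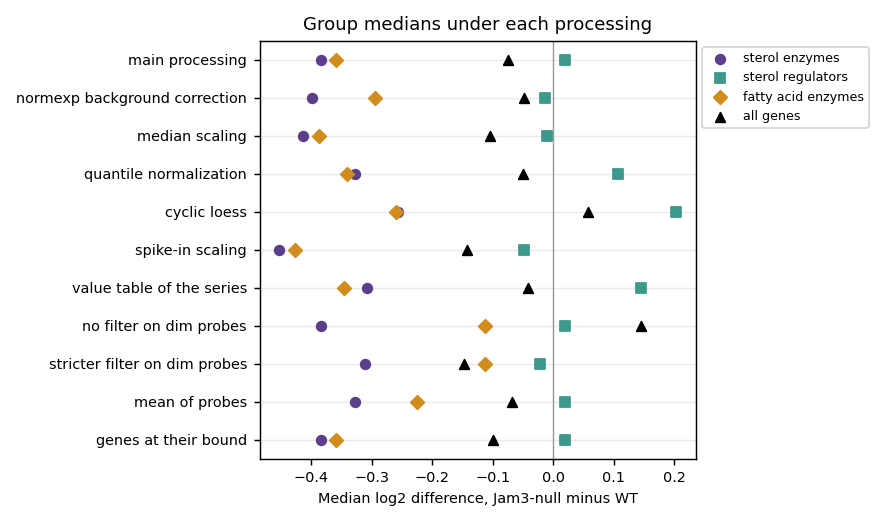
Median log2 difference, Jam3-null minus WT, of the sterol enzymes, the regulators, the fatty acid enzymes and all genes under the main processing and each alternative. The sterol enzymes stay between -0.45 and -0.26 and left of all genes in each row, the regulators move between -0.05 and 0.20, and the fatty acid enzymes reach -0.11 when the filter on dim probes is removed or made stricter.

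The medians of both enzyme groups stayed below 0 under each alternative tried. Over 10 alternatives, the sterol enzyme median lay between -0.45 and -0.26 and the fatty acid enzyme median between -0.43 and -0.11. The regulators' median changed sign, from -0.05 to 0.20. With a stricter filter on dim probes 6 fatty acid enzymes were left, with a median of -0.11 beside -0.15 for all genes, so among bright genes the fatty acid enzymes did not lie below the rest.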

How the data were processed

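Expression was measured in 2 samples, Jam3-null and WT, on 1-colour arrays of 1 slide. Per the file headers, the scanner images were read by Feature Extraction 10.7.3.1 (version 10.7 of this Agilent software in the submitters' processing notes). The deposited intensities were background-subtracted and detrended within each array and not scaled between arrays. The authors' value table, an alternative here, holds log2 values with the same distribution in both columns (median 5.66 in each); how they were normalized is not stated in the sources used here. It followed the log2 scanner signals (Pearson r over probes 0.999 for each array).

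Spots flagged as outliers were left out (151 Jam3-null, 163 WT), and 0 were saturated. Log2 processed signal minus the 75th percentile of each array's 43379 non-control spots (667.8 and 713.9) was compared, Jam3-null minus WT, for probes well above background on both arrays. The error model of the scanner software gave each log2 difference its SD, with a median of 0.20. Probes printed in repeat had a median SD of 0.08 (120 probes), but each probe of the group had 1 spot. Brightness over background and the number of arrays limit precision. Called means past a stated fold, and no test was possible.

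The members and all lists were chosen with earlier results of these data known. Every member is named; members at least 1.5-fold apart or with probes of opposite sign are given in full, and of each other list at most 6 genes at least 2-fold apart. Genes with no accession match keep the file's name (59 of 68 probes matched RefSeq, 58 of them under the same symbol). Probe coordinates are those of the files (mm9). Only the step from scaled probe values to gene values was tested on simulated data. Software was limma 3.58.1 in R 4.3.3, and numpy 2.4.6, matplotlib 3.10.9 and pandas 2.3.3 in Python 3.11.15.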

Additional observations from a re-analysis of the deposited data

How the results depend on the processing

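No paired analysis was possible because each genotype has 1 array, and for the same reason no replicate could be left out. The alternatives were normexp background correction (offset 50), median, quantile, cyclic loess and spike-in scaling, values from the authors' table, a dim-probe filter that was left out or made stricter, the mean of a gene's probes, genes at their bound, and a 1.5-fold threshold. At 1.5-fold, 6 sterol and 5 fatty acid enzymes were lower. The stricter filter kept 10 sterol enzymes with 0 at least 2-fold lower, and 6 fatty acid enzymes with 1 at least 2-fold lower, 0 higher and a median of -0.11; over all genes it left 610 lower and 565 higher of 7175, fewer genes being compared. With no filter the fatty acid enzymes had a median of -0.11 and 2 at least 2-fold higher, and all 27370 genes a median of 0.15 with 2939 lower and 2872 higher, signals below background being included. Cyclic loess moved the median of all genes from -0.07 to 0.06, so changes under it are relative to that shift, and turned the split of 1479 higher and 1239 lower genes into 1766 and 990; spike-in scaling gave 1351 and 1444. Of 325 values of single genes under these alternatives, 17 moved by more than the error-model SD. Many of the 325 could not move so far, so this count says little of how stable the values are. The filters and bounds left the value of a measured gene unchanged. The mean of probes did the same for a gene with a single measured probe. Median and spike-in scaling each shifted all genes by the same amount, smaller than that SD. Of the 7 genes at least 2-fold apart, 5 stayed so under each alternative that gave them a value, and Cyp51 and Fads2 did not after normexp correction; under the stricter filter Elovl6 alone of the 7 had a value. By the same count, of 23 lower genes 18 stayed below 0 (not Scap, Insig1, Acly, Scd2 and Elovl5), and of 11 higher genes 8 stayed above (not Ebp, Sc5d and Srebf1). Apart from the filters, whose effect follows from the genes compared, the cause of these shifts was not tested. Below background, where Scd1 and Me1 lie, the arrays cannot show a difference.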
